A study of Mus musculus with 10 samples.

Results

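A set of 10 genes of the MHC class I route was followed in microglia of the midbrain and the striatum. The set holds the heavy chains H2-K1, H2-D1 and H2-T23, the shared light chain B2m, the loading genes Tap1, Tap2 and Tapbp, the transactivator Nlrc5, and the immunoproteasome subunits Psmb8 and Psmb9. They were chosen by name for their place in the pathway, with earlier results of these data known. They make up 10 of the 53715 genes in the count tables. All 10 passed the filter on low counts in every comparison.

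MHC class I molecules show short peptides from the inside of a cell to CD8+ T cells and to natural killer cell receptors. The proteasome cuts proteins into peptides, the TAP transporter carries them into the endoplasmic reticulum, and tapasin helps to load them onto a heavy chain paired with beta-2 microglobulin. In brain tissue the level of this machinery is low at rest and rises with interferon, when immunoproteasome subunits take the place of their constitutive partners and Nlrc5 drives class I transcription.

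The study sequenced CD11b+ cells from untreated male C57BL/6 mice aged 3 months, to compare microglia of the midbrain with those of the striatum. Brains were perfused and digested with papain, and cells were taken from a Percoll gradient with CD11b magnetic beads. The poly-A RNA was made into 3′-end bulk libraries, 2 for midbrain and 2 for striatum in a pilot cohort, and 2 for each region in a second cohort. A further pair of libraries of the second cohort carried one region in the title and the other in the name of the file, and entered only the alternatives named as such. All groups share genotype, age and the lack of treatment. The bead step selects by CD11b, which other myeloid cells also carry, and the study checked the separated cells by flow cytometry for CD45 and CD11b. Its mice were as many as its libraries of each region, so the libraries of a region came from separate mice and those of the 2 regions share mice. In the second cohort the numbers in the titles and in the names of the files differ, so which libraries share a mouse is not settled, and the fits described here are unpaired unless a block is named.

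Each assigned library held between 575709 and 8463782 counts, a 14.7-fold range, and the shallowest was striatum replicate 3 of the second cohort. Levels are given as CPM, which bring each library to the same total and were scaled with TMM factors, and differences as the log2 fold change of midbrain over striatum. The 14 microglial markers were all above the floor of 3 counts in at least 1 assigned library, and their summed level ranged from 15044 to 18529 CPM in midbrain libraries and from 20839 to 28006 CPM in striatum libraries. In bulk RNA, more cells of a type and more RNA per cell cannot be told apart.

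Of the 10 genes, 8 lie on chromosome 17, where the mouse major histocompatibility complex is. Coordinates are those of the count tables (GRCm38). Psmb9, Tap1, Psmb8 and Tap2 stand in this order in a block of 34334 bases at chr17:34181988-34216321. Psmb9 is on the minus strand and Tap1 on the plus strand, and their exons overlap by 212 bases. H2-K1 spans chr17:33996017-34000333, Tapbp chr17:33915899-33929288, H2-D1 chr17:35262730-35267499 and H2-T23 chr17:36029773-36032855. B2m lies at chr2:122147686-122153083 and Nlrc5 at chr8:94434356-94527272. Counting did not use strand, so reads in the Psmb9 and Tap1 overlap could not be given to either gene, and the same holds for 18.5% of the exon length of Tap2 and 22% of that of Tapbp, which overlap other annotated genes.

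Class I promoters share a compact module that Nlrc5 and its partners occupy, and the sequences of the heavy chains, the light chain and the start of Tap1 are shown since the regional comparison turns on whether these genes move together. The RefSeq promoter table (GRCm38.p6) held a window of 300 bases, 250 before the start and 50 after it, for 8 of the 10 genes. Each window is written 5′ to 3′ on the strand of its gene. Capitals mark matches, on either strand, to the Y box core CCAAT, the cyclic AMP response element core TGACG, the interferon-stimulated response element core GAAANNGAA and the interferon consensus core GAANNGAAA, of which the last pair can overlap each other. H2-D1 is at chr17:35262844-35263143, plus strand, H2-K1 at chr17:34000284-34000583, minus strand, H2-T23 at chr17:36032652-36032951, minus strand, B2m at chr2:122147437-122147736, plus strand and Tap1 at chr17:34187306-34187605, plus strand.
H2-D1: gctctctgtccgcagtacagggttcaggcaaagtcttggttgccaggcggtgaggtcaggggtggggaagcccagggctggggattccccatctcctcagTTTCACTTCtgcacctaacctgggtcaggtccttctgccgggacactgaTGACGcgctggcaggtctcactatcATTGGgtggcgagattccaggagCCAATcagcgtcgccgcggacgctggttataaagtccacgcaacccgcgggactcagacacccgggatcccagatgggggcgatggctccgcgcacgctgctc
H2-K1: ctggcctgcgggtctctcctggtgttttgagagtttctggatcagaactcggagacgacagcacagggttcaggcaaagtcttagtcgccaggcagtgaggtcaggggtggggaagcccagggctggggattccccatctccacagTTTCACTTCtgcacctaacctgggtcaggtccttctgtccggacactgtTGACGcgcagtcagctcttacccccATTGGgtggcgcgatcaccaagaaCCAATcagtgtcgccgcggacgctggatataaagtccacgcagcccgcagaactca
H2-T23: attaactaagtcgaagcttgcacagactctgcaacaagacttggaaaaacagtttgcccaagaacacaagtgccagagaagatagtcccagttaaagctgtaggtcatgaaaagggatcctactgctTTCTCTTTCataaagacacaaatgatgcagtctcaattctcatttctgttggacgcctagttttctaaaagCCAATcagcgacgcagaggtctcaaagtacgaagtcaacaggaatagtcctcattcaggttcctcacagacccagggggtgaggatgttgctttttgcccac
B2m: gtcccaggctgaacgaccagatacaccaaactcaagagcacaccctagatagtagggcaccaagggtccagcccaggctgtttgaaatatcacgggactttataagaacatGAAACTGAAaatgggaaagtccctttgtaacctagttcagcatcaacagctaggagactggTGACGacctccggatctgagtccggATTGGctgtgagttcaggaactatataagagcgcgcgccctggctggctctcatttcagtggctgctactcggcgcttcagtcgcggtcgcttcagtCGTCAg
Tap1: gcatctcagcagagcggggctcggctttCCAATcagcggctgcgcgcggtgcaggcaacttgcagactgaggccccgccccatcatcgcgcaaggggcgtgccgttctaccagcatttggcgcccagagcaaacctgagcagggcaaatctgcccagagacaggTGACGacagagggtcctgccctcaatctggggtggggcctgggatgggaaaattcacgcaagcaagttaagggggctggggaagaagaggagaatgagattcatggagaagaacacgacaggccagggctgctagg

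The windows of H2-D1 and H2-K1 held the same motifs in the same order, an interferon consensus core, then TGACG, then a Y box core on each strand. The interferon consensus core was in these 2 of the 8 windows and in 7.56% of the windows of all genes, taken with 1 window for each gene. The GAAANNGAA core was in B2m and H2-T23, against 8.57% of all genes. The Y box core was in 7 of 8 windows, all but that of Psmb8, against 37.9% of all genes, and TGACG was in 5 of 8 against 21.0%. The starts of Tap1 and Psmb9 lie 226 bases apart and point away from each other, so the Tap1 window also covers the promoter of Psmb9. The Y box core and the TGACG of these windows are the same bases, counted once for each gene. These are matches of letters and not measured binding.

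No member passed the threshold in the unpaired fit of either cohort or of both cohorts together. With the number in the title as a replicate block, B2m was called in the pilot cohort, and H2-D1 in the second cohort and in the joint fit. The block fits called 401 of 14972, 988 of 13486 and 308 of 14053 genes, and the unpaired fits 395, 468 and 149. Within a cohort the threshold was the study's unadjusted p of 0.01, which 2.64% of 14972 tested genes passed in the pilot cohort and 3.47% of 13486 in the second. In limma's joint fit with cohort as covariate, the threshold was a Benjamini-Hochberg adjusted p of 0.05, which 1.06% of 14053 genes passed. With no adjustment and a limit of 0.05, 2 of 10 members were counted in the pilot cohort (10.9% of all genes), 4 in the second (10.6%) and 2 in the joint fit (14.6%). edgeR's quasi-likelihood test called 0 members in each of these 3 comparisons, and DESeq2 called 0, 0 and 2, the latter being H2-D1 and Nlrc5. In that joint fit DESeq2 called 544 of 14053 genes, against 149 by limma. The joint log2 fold change lay above 0 for 9 of 10 members, with a median of 0.29, while 54.4% of all tested genes lay above 0, with a median of 0.04.

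The plot of the 10 genes by library shows that H2-D1 and Nlrc5 were higher in both midbrain libraries than in both striatum libraries of each cohort. Of all tested genes, 9.06% had this arrangement in both cohorts. In the pilot cohort alone it also held for B2m, Tap2 and Psmb8, and in the second cohort alone for H2-K1, Tap1 and Tapbp, against 23.1% and 23.5% of all genes. Tap2 had the opposite arrangement in the second cohort, which 17.2% of all genes shared.

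**Figure D1:**
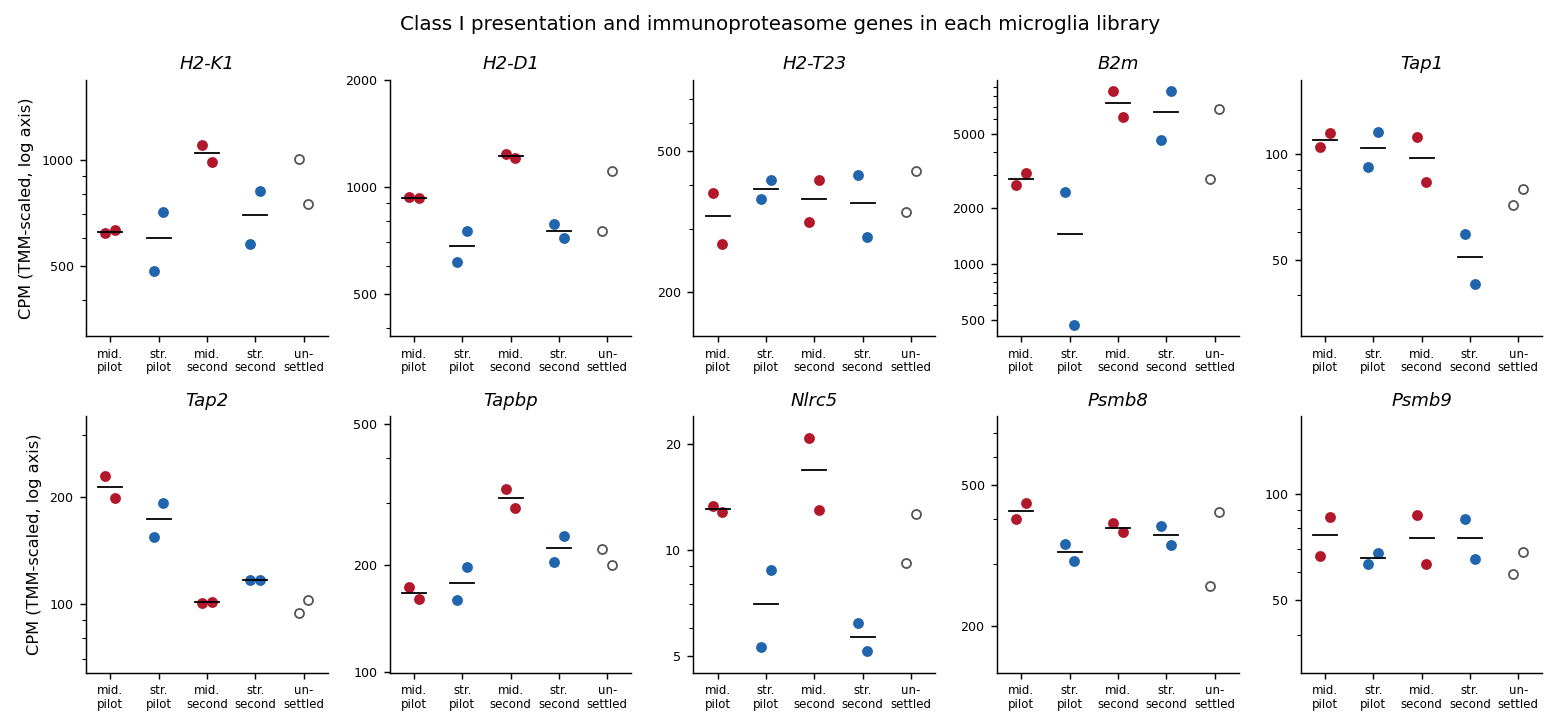
CPM of the 10 genes in each library, on a log axis of its own for each gene. Red points are midbrain, blue points striatum, black lines the mean of 2 libraries, and open points the pair of libraries whose region is unsettled (left, titled Mdb 2, and right, titled Str 2). H2-D1 and Nlrc5 have both red points above both blue points in each cohort, and B2m has 1 striatum library at 473 CPM.

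The classical heavy chains H2-D1 and H2-K1 bind the peptides shown to CD8+ T cells. H2-D1 had 934 and 929 CPM in the midbrain and 614 and 750 CPM in the striatum of the pilot cohort. The second cohort gave 1242 and 1208 CPM in the midbrain and 784 and 716 CPM in the striatum. Both midbrain groups therefore stood above both striatum groups of their cohort, by more than the replicates of any group differed. Its log2 fold change was 0.41 (SE 0.19, adjusted p = 0.465) in the pilot cohort and 0.69 (SE 0.22, adjusted p = 0.289) in the second. The threshold within cohorts is set on the unadjusted p, and in the second cohort H2-D1 missed that limit only narrowly. Of the 10 alternatives that left out no assigned library, 5 called H2-D1 in the second cohort. The joint value was 0.57 (SE 0.12, 95% interval 0.31 to 0.84), with the smallest p of the 10 genes, and its adjusted p of 0.0511 missed the threshold. Without striatum replicate 2 of the pilot cohort the adjusted p was 0.0192, and leaving out each of the 8 libraries in turn moved it from 0.0192 to 0.226, with the log2 fold change between 0.51 and 0.66. With the replicate block it was 0.0431. When the pair of libraries of unsettled region was added by title, the joint log2 fold change was 0.36 (adjusted p = 0.772) and that of the second cohort 0.30. When it was added in the other region they were 0.53 (adjusted p = 0.0231) and 0.66. Of 13814 genes in these joint fits, 0 passed with the pair by title and 440 with it in the other region. The pilot value was 0.24 without striatum replicate 1.

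H2-K1 did not show the same arrangement in the pilot cohort. It had 619 and 631 CPM in the midbrain and 484 and 713 CPM in the striatum, so the midbrain values lay between the striatum ones. The midbrain libraries of the second cohort had 1103 and 982 CPM and its striatum libraries 577 and 814 CPM, with no overlap. The log2 fold change was 0.05 (SE 0.22) in the pilot cohort, 0.61 (SE 0.25, adjusted p = 0.411) in the second and 0.35 (SE 0.17, 95% interval -0.03 to 0.72, adjusted p = 0.386) in the joint fit. Without striatum replicate 1 of the second cohort the second value was 0.32 and the joint one 0.15, and without striatum replicate 2 of the pilot cohort the joint value was 0.52. The difference between the cohorts in this regional value was 0.54 (SE 0.32, adjusted p = 0.861).

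The ratio of H2-K1 to H2-D1 counts in the same library does not depend on how the libraries were scaled. It was 0.663 and 0.680 in the pilot midbrain, 0.789 and 0.951 in the pilot striatum, 0.888 and 0.813 in the second midbrain, and 0.736 and 1.14 in the second striatum. The groups were apart in the pilot cohort and overlapped in the second. The log2 ratio differed by -0.24 between midbrain and striatum, and the exact two-sided permutation test within cohorts gave p = 0.278, where 36 arrangements allow no p under 0.0556. Heavy chain genes resemble each other, and reads that fit several genes were not counted. Of all stretches of 50 bases in the last 500 bases of the transcript, 9.5% of those of H2-D1 occur elsewhere, spread over 143 other genes. For H2-K1 the share is 0.4%, all of it in H2-D1.

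H2-T23 encodes Qa-1, a nonclassical heavy chain that presents signal peptides to the CD94 and NKG2 receptors of natural killer cells. It had 381 and 272 CPM in the pilot midbrain and 366 and 413 CPM in the pilot striatum. The second cohort had 315 and 415 CPM in the midbrain and 428 and 285 CPM in the striatum. The groups overlapped in both cohorts. It was the one member with a joint log2 fold change under 0, at -0.15 (SE 0.17, 95% interval -0.53 to 0.22, adjusted p = 0.728), an interval that leaves out a rise of the size measured for H2-D1. It was -0.29 without striatum replicate 3 of the second cohort and -0.018 without midbrain replicate 2 of the pilot cohort. In its last 500 transcript bases, 41.2% of the 50-base stretches occur in other genes, and reads there could not be counted if they mapped to several places.

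B2m, the light chain that every classical and nonclassical heavy chain needs at the surface, was the most variable of the 10 genes. It had 2663 and 3086 CPM in the pilot midbrain, 2436 and 473 CPM in the pilot striatum, 8521 and 6167 CPM in the second midbrain, and 4632 and 8496 CPM in the second striatum. The range over the assigned libraries was 18.0-fold, and the pilot striatum libraries differed 5.15-fold from each other. The log2 fold change was 1.36 (SE 0.57, adjusted p = 0.446) in the pilot cohort, 0.23 (SE 0.29) in the second and 0.83 (SE 0.42, adjusted p = 0.399) in the joint fit. Without striatum replicate 2 of the pilot cohort, these became 0.23 for the pilot cohort and 0.24 for the joint fit, so this library set most of the value.

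The low B2m level in that library was looked at further after the values were seen. Of 1636 genes with at least 100 CPM in each of the other 3 pilot libraries, 39 (2.38%) stood at less than 50% of the lowest of those 3 values in this library. B2m had the sixth largest drop of them. The part of the library in the regional difference of B2m was measured by leaving it out, as given above, and why it differs was not tested.

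The peptide transporter and its partners followed no common course. Tap1, one subunit of the transporter, had 105 and 114 CPM in the pilot midbrain and 92.0 and 115 CPM in the pilot striatum. Values of the second cohort were 112 and 83.5 CPM in the midbrain and 59.3 and 43.0 CPM in the striatum, the last from 25 counts. Its log2 fold change was 0.04 (SE 0.20) in the pilot cohort, 0.82 (SE 0.32, adjusted p = 0.400) in the second and 0.35 (SE 0.19, adjusted p = 0.440) in the joint fit. The joint value was 0.19 without midbrain replicate 1 of the second cohort and 0.20 without striatum replicate 1. The overlap of the groups in the pilot cohort and their separation in the second did not pass as a difference between cohorts, which was 0.73 (SE 0.36, adjusted p = 0.860).

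Tap2, the other transporter subunit, had 230 and 199 CPM in the pilot midbrain and 155 and 193 CPM in the pilot striatum. In the second cohort both midbrain libraries had 101 CPM, and the striatum libraries had 116 and 117 CPM. The order of the regions was thus opposite in the 2 cohorts, with log2 fold changes of 0.26 (SE 0.20) and -0.22 (SE 0.27), and a difference between cohorts of -0.52 (SE 0.29, adjusted p = 0.861). The joint value was 0.10 (SE 0.15, 95% interval -0.24 to 0.44). The pilot value was 0.083 without striatum replicate 1 and 0.46 without striatum replicate 2.

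Tapbp encodes tapasin, which holds the empty heavy chain at the transporter. It had 173 and 160 CPM in the pilot midbrain, 160 and 197 CPM in the pilot striatum, 327 and 290 CPM in the second midbrain, and 204 and 242 CPM in the second striatum. The groups overlapped in the pilot cohort and were apart in the second. The log2 fold change was -0.14 (SE 0.19) in the pilot cohort, 0.48 (SE 0.25) in the second and 0.18 (SE 0.16, adjusted p = 0.646) in the joint fit. The joint value was 0.0066 without striatum replicate 1 of the second cohort, 0.066 without midbrain replicate 1 and 0.31 without striatum replicate 2 of the pilot cohort, and the second value was 0.31 without striatum replicate 1. The difference between cohorts was 0.60 (SE 0.28, adjusted p = 0.860). Such cohort differences in the regional value were called for 0% of the 14053 genes by limma, and for 0 members by limma, edgeR or DESeq2. Without adjustment 5.49% of all genes and 0 of 10 members were under 0.05.

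Nlrc5, the transactivator that acts at the promoters of class I genes, had the largest joint log2 fold change of the 10 genes and the fewest counts, between 3 and 98 per assigned library. It had 13.4 and 12.8 CPM in the pilot midbrain and 5.31 and 8.77 CPM in the pilot striatum. The second cohort had 20.8 and 13 CPM in the midbrain and 6.18 and 5.15 CPM in the striatum. The lowest of these values rests on 3 counts, the floor used here. The log2 fold change was 0.83 (SE 0.36, adjusted p = 0.453) in the pilot cohort, 1.40 (SE 0.57, adjusted p = 0.413) in the second and 1.04 (SE 0.30, 95% interval 0.39 to 1.70) in the joint fit. With an adjusted p of 0.127 it did not pass, and leaving out 1 library at a time gave adjusted p-values from 0.0829 to 0.322. With the unsettled pair by title the joint value was 0.79 (adjusted p = 0.771, in a fit where 0 of 13814 genes passed) and that of the second cohort 0.71. The pilot value was 0.51 without striatum replicate 1 and 1.28 without striatum replicate 2. DESeq2 and limma with quality weights for each library did call it, in joint fits that called 544 and 412 of 14053 genes.

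**Figure D2:**
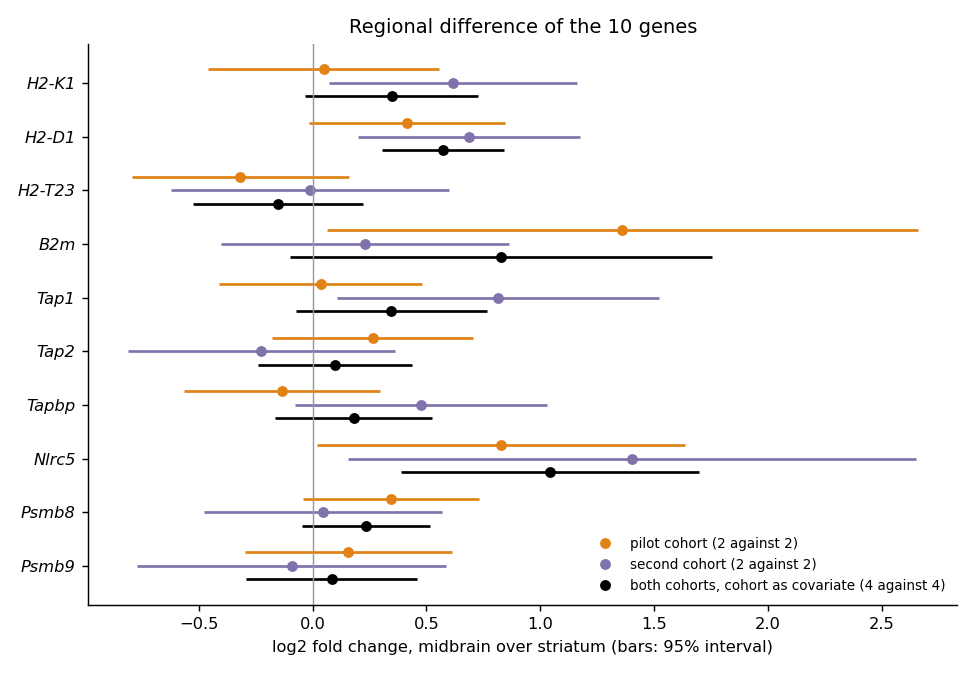
Log2 fold change of midbrain over striatum for each gene in the pilot cohort (orange, 2 libraries against 2), the second cohort (purple, 2 against 2) and the joint fit (black, 4 against 4), with 95% intervals as bars. The joint intervals of H2-D1 and Nlrc5 lie above 0, and those of the other 8 genes include 0.

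Psmb8 and Psmb9 encode catalytic subunits that enter the proteasome under interferon and change which peptides it cuts. Psmb8 had 401 and 443 CPM in the pilot midbrain and 341 and 304 CPM in the pilot striatum, with no overlap. In the second cohort it had 390 and 368 CPM in the midbrain and 383 and 338 CPM in the striatum, where the groups overlapped. The log2 fold change was 0.34 (SE 0.17, adjusted p = 0.487) in the pilot cohort, 0.05 (SE 0.24) in the second and 0.24 (SE 0.13, 95% interval -0.05 to 0.52, adjusted p = 0.434) in the joint fit.

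Psmb9 had 66.8 and 86.1 CPM in the pilot midbrain, 63.5 and 67.9 CPM in the pilot striatum, 87.2 and 63.3 CPM in the second midbrain, and 85.1 and 65.3 CPM in the second striatum. The groups overlapped in both cohorts. It varied least between libraries of all 10 genes, 1.38-fold from the lowest to the highest, and its joint log2 fold change was 0.08 (SE 0.17, 95% interval -0.29 to 0.46). A rise or fall of 2-fold lies outside this interval and outside those of H2-K1, H2-D1, H2-T23, Tap1, Tap2, Tapbp and Psmb8, while a 2-fold rise lies inside those of B2m and Nlrc5.

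Each immunoproteasome subunit replaces a constitutive one, so its balance with that partner was read within each library. The Psmb8 to Psmb5 ratio was 9.90 and 9.81 in the pilot midbrain, 8.87 and 7.37 in the pilot striatum, 9.46 and 10.8 in the second midbrain, and 6.28 and 7.45 in the second striatum. Both midbrain ratios were above both striatum ratios in each cohort. The log2 ratio was higher in the midbrain by 0.29 in the pilot cohort, 0.56 in the second and 0.42 over both, and the exact two-sided permutation p of 0.0556 is the smallest that these 36 arrangements can give. Psmb5 itself had 40.4 and 45.1 CPM in the pilot midbrain and 38.3 and 41.3 CPM in the pilot striatum. In the second cohort it had 41.2 and 33.9 CPM in the midbrain and 60.7 and 44.7 CPM in the striatum. There the ratio thus went with a lower Psmb5 in the midbrain, as the log2 fold change of Psmb8 was 0.05. Psmb5 had 26 to 353 counts per assigned library, and 51.2% of its 3′ stretches of 50 bases also occur in the gene Gm3375, so its level is uncertain.

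The ratios of the other subunits did not stand apart in each cohort. The Psmb9 to Psmb6 ratio was 0.229 and 0.314 in the pilot midbrain, 0.262 and 0.306 in the pilot striatum, 0.319 and 0.296 in the second midbrain, and 0.304 and 0.383 in the second striatum. The log2 difference was -0.12 (exact permutation p = 0.389) with overlap in both cohorts. For Psmb10, the remaining inducible subunit, levels of 198 to 269 CPM were measured in all assigned libraries, and its joint log2 fold change was 0.06 (SE 0.13). Its partner Psmb7 had between 0 and 17 counts, too few for a ratio to be read (log2 difference -0.40, exact permutation p = 0.667, and 0.25 without striatum replicate 2 of the pilot cohort).

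**Figure D3:**
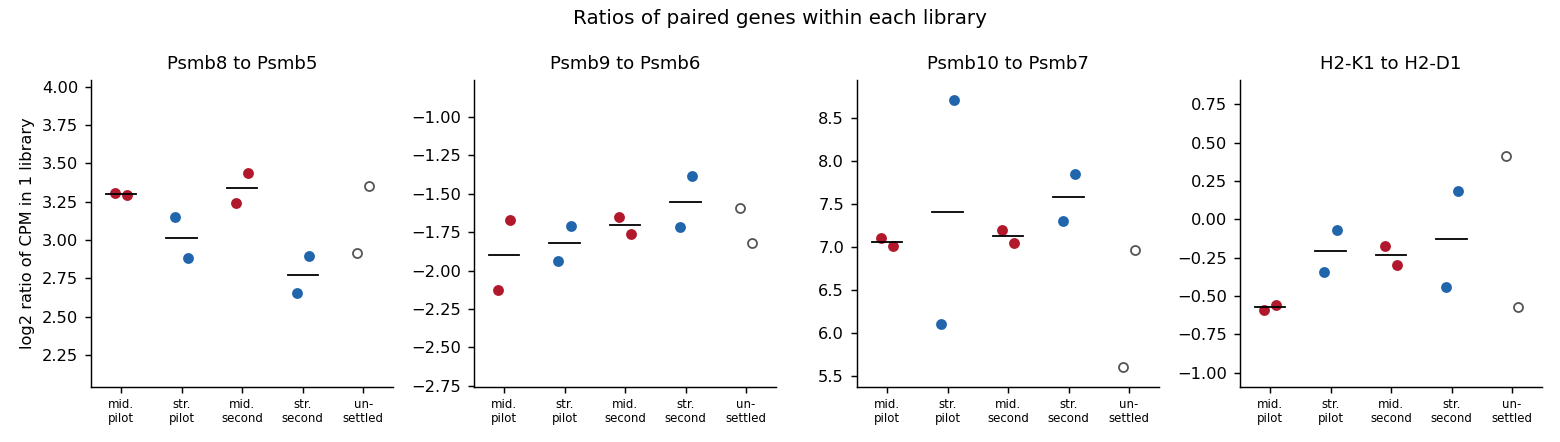
Log2 ratio of 2 genes within each library, with midbrain in red, striatum in blue, the mean of 2 libraries as a line and the pair of libraries of unsettled region as open points (left Mdb 2, right Str 2). Only the Psmb8 to Psmb5 panel has both red points above both blue points in each cohort, and the Psmb10 to Psmb7 panel rests on 17 counts of Psmb7 or fewer.

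The cohorts were then compared with each other, which the regional comparison holds as a covariate. In the joint fit 3 of 10 members passed an adjusted p of 0.05 for second against pilot cohort, where 10.5% of all genes did. On the log2 scale B2m was higher in the second cohort by 1.93 (SE 0.42, adjusted p = 0.0203) and Tapbp by 0.61 (SE 0.16, adjusted p = 0.0336), and Tap2 was at -0.86 (SE 0.16, adjusted p = 0.0108). Without midbrain replicate 1 of the pilot cohort 0 of 10 members and 134 of 13552 genes passed, with limma's adjusted p for Tap2 at 0.0647. Without striatum replicate 3 of the second cohort 1 member passed, which was Tap2, and 633 of 14050 genes. Leaving out striatum replicate 2 of the pilot cohort gave 4 members and 2021 of 13568 genes. Leaving out striatum replicate 1 of the second gave 4 members and 1060 of 13922 genes. Among the loading genes, Tap2 and Tapbp thus differed in opposite directions. The cohort stands for everything that differed between the experiments and cannot be told apart into its parts.

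The members' profiles over the 8 assigned libraries were set side by side after the mean of each cohort was taken away. H2-D1 followed the mean of the other members with r = 0.926 and Nlrc5 with r = 0.921, and these 2 genes followed each other with r = 0.974. H2-K1 and Tapbp followed each other with r = 0.931. B2m (r = 0.045), Tap2 (r = -0.004) and H2-T23 (r = -0.371) did not follow the mean of the rest. The libraries share depth and region, so these values describe the 8 libraries only. Among 7028 genes, 6.19% followed the mean of the members with r above 0.8, and the 8 closest were Rps10 (r = 0.991), Srf (0.989), Pirb (0.987), Gpx1 (0.986), Cybb (0.985), Ly6c2 (0.983), Rps26 (0.982) and Il1b (0.981). Ly6c2 is a surface marker of inflammatory monocytes, Cybb is part of the phagocyte oxidase, and Rps10 and Rps26 are ribosomal proteins.

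Beyond the 10 genes, 117 others of the pathway were listed by role, of which 94 were tested and 2 rose in the midbrain in the joint fit, against 0.975% of all genes called higher. H2-Q10, a secreted class I molecule, had 66 and 41 counts in the pilot midbrain, 10 and 24 in the pilot striatum, 95 and 76 in the second midbrain, and 7 and 0 in the second striatum. Its log2 fold change was 2.48 (SE 0.45, adjusted p = 0.0310). Pirb, an inhibitory receptor of myeloid cells that binds class I, had 185 and 151 CPM in the pilot midbrain, 71.5 and 87.9 CPM in the pilot striatum, 309 and 208 CPM in the second midbrain, and 98.9 and 99.7 CPM in the second striatum. Its log2 fold change was 1.19 (SE 0.17, adjusted p = 0.0181). For both genes the groups were apart in each cohort.

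Both calls depended on single libraries and on where the unsettled pair was placed. The fits in which they were lost called few genes of any kind, against 149 of 14053 in the main fit. The numbers were 0 of 13814 with the pair by title, 0 of 13552 without midbrain replicate 1 of the pilot cohort and 9 of 13608 without its striatum replicate 1. Without striatum replicate 1 or 3 of the second cohort they were 0 of 13922 and 3 of 14050. With that pair by title the log2 fold change was 1.72 for H2-Q10 (adjusted p = 0.771) and 0.68 for Pirb (adjusted p = 0.772), and neither was called. With it in the other region they were 2.27 (adjusted p = 0.00865) and 1.21 (adjusted p = 0.00582). Without midbrain replicate 1 of the pilot cohort the adjusted p was 0.119 for H2-Q10 and 0.0835 for Pirb, and without striatum replicate 1 of the pilot cohort 0.0711 and 0.0550. Without striatum replicate 1 of the second cohort these values were 0.146 and 0.119, and without striatum replicate 3 they were 0.0890 and 0.0656. Over the omissions of each of the 8 libraries the log2 fold change stayed between 2.15 and 2.94 for H2-Q10 and between 1.04 and 1.29 for Pirb.

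Of the other class I heavy chains, 13 of 23 listed genes were tested, with 8 above 0 and a median of 0.04. H2-Q6 had the largest value among those not called, 1.51 (SE 0.65, adjusted p = 0.310), and 49.4% of its 3′ stretches are shared with other genes. Of 15 tested genes for peptide trimming, loading and export, 8 lay above 0, with a median of 0.02. Tapbpl, a peptide editor related to tapasin, had the largest difference of these and was lower in the midbrain, at -0.57 (SE 0.17, adjusted p = 0.136). It had 35.6 and 37.2 CPM in the pilot midbrain, 43.0 and 55.3 CPM in the pilot striatum, 32.9 and 38.3 CPM in the second midbrain, and 60.4 and 61.9 CPM in the second striatum, apart in each cohort and opposite to tapasin in the second.

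The bulk of the proteasome was close to 0. The median joint log2 fold change was 0.09 for the 5 other inducible parts, 0.13 for the 14 genes of the constitutive 20S core and -0.01 for the 17 genes of the 19S regulatory particle, and 0 of these genes were called by limma, edgeR or DESeq2, with 1, Psmd1, under 0.05 before adjustment. The largest values were 0.21 for Psme1, a subunit of the PA28 activator, 0.59 for Psma4 of the core and 0.51 for Psmd1 of the regulatory particle, with adjusted p-values of 0.506, 0.501 and 0.267. Psma4 had 58 counts in striatum replicate 2 of the pilot cohort, where B2m was also low.

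Of 26 regulators of class I genes, 0 were called by limma or edgeR and 4 were under 0.05 before adjustment, with a median of 0.04. DESeq2 called 1, Socs3, a feedback inhibitor of cytokine signalling, which had the largest value in limma, 0.61 (SE 0.15, adjusted p = 0.0847). Irf1, an activator of class I and immunoproteasome genes, was at 0.38 (SE 0.15, adjusted p = 0.260). Rfx5, which binds the X box beside Nlrc5, was at 0.45 (SE 0.37) from 0 to 45 counts. Irf8, a lineage factor of microglia, was at -0.21 (SE 0.13). None of these 3 passed the test. Of 16 genes listed under receptors that read class I, not all of which bind class I, 4 were tested, all above 0. The largest value besides Pirb was that of Klra2, 1.97 (SE 0.55, adjusted p = 0.116).

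**Figure D4:**
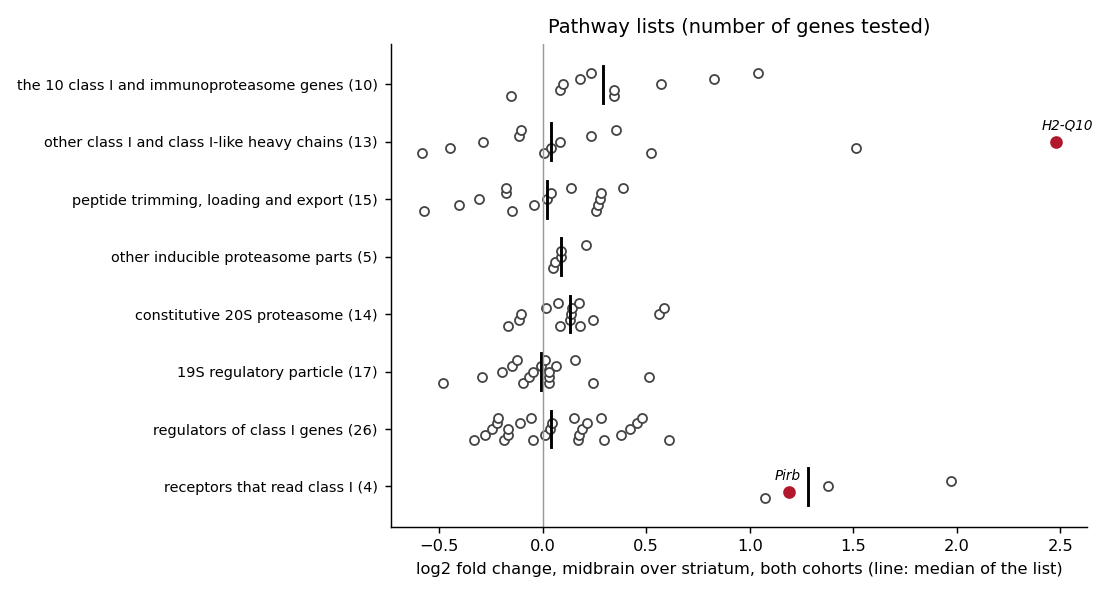
Joint log2 fold change of midbrain over striatum for every tested gene of each list, with the number tested in brackets and the median of the list as a black line. Filled red points are the genes that passed, H2-Q10 and Pirb, and the open points did not pass.

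Markers of other immune cells moved with region in these libraries. In the joint fit 6 of 10 markers of brain border macrophages, 2 of 10 of monocytes, 4 of 10 of neutrophils and 1 of 9 tested of T and NK cells were called higher in the midbrain. The summed level of the border macrophage markers was 2038 to 2448 CPM in the pilot midbrain, 1027 to 1414 CPM in the pilot striatum, 2639 to 3222 CPM in the second midbrain and 651 to 722 CPM in the second striatum. Of the neutrophil markers the sums were 1096 to 1421, 842 to 874, 3960 to 6562 and 925 to 1000.0 CPM in the same order, and of the monocyte markers 256 to 347, 133 to 135, 627 to 2804 and 146 to 267 CPM. Of the T and NK cell markers they were 97.0 to 126, 24.8 to 49.3, 164 to 341 and 6.87 to 60.7 CPM, with Cd3e at or under the floor in every assigned library. The 8 tested dendritic cell markers were all above 0, with a median of 1.6 and 4 under 0.05 before adjustment, and summed to 62.1 to 87.1, 25.6 to 42.8, 83.8 to 96.3 and 19.3 to 20.6 CPM. All 14 microglial markers had log2 fold changes under 0, with a median of -0.54, and 2 of them were called lower, as were 0.0854% of all genes.

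The sums of these 5 other cell types were higher in both midbrain libraries than in both striatum libraries of each cohort, the arrangement also seen for H2-D1, Nlrc5, H2-Q10 and Pirb. The sums for B cells, astrocytes, oligodendrocytes, neurons, endothelial cells and pericytes did not have it in both cohorts. The part of other cells in the regional values of the members was not tested. Depth also moved with region in the second cohort, where the midbrain libraries had 5176234 and 4473445 counts and the striatum libraries 2820369 and 575709. Its part was measured in a fit on counts thinned to the smallest library, in which H2-D1 passed and Nlrc5 was left with too few counts to be tested. In that fit 197 of 9005 genes passed. Immediate early genes, which respond to dissociation, summed to 20085 to 23700 CPM in the pilot midbrain, 14653 to 23885 CPM in the pilot striatum, 22933 to 25046 CPM in the second midbrain and 12208 to 12662 CPM in the second striatum, and their part was not tested.

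**Figure D5:**
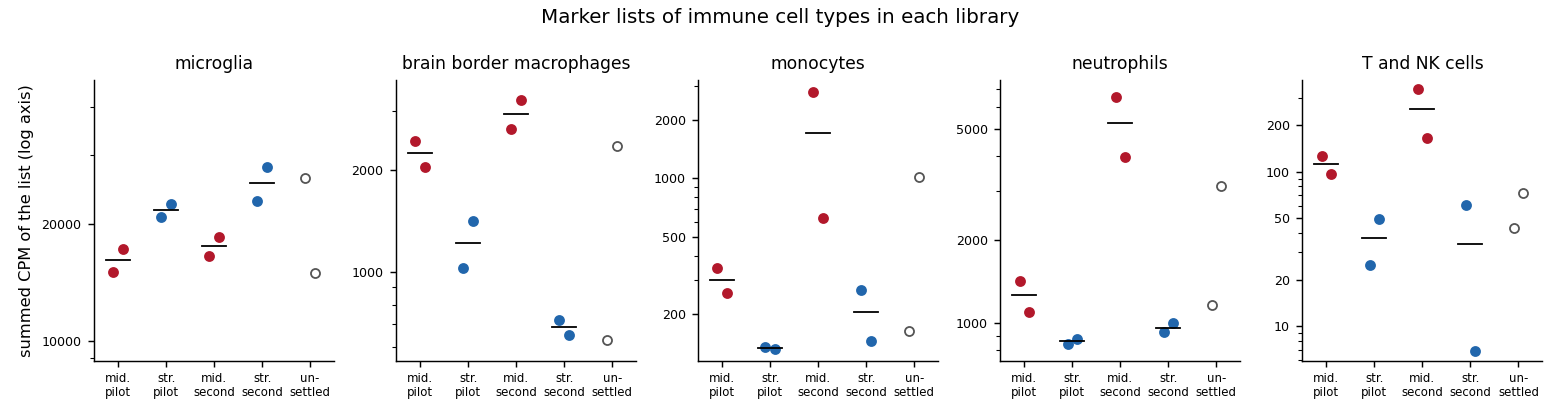
Summed CPM of the markers of 5 immune cell types in each library, on log axes that differ between panels, with colours and open points as in the plot of the 10 genes. The microglial sum is lower in the midbrain than in the striatum of each cohort, and the other 4 sums are higher.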

How the data were processed

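Per the labels and the study's methods, the authors mapped reads with STAR 2.5.3a on GRCm38 and ran featureCounts 1.6.0 with Gencode M17, ignoring strand, and the deposited values are raw counts per gene without normalization. Symbols were matched to 53620 of 53715 identifiers. The 8 libraries with a single region in title and file name were grouped by region and cohort, 2 in each group, and the other 2 were left out.

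A gene was removed when over 50% of a fit's libraries had under 6 counts. Counts were scaled with TMM (edgeR 4.0.16) and fitted with voom and limma 3.58.1 in R 4.3.3, within each cohort and over both with cohort as covariate. As in the study, an unadjusted two-sided p under 0.01 was used within cohorts. Ratios within libraries were tested by exact permutation of the region within cohorts. Intervals are 95% intervals of the fit, and the floor is 3 counts. On simulated counts, 98 of 100 genes changed 4-fold and 48 of 100 changed 2-fold were recovered in the joint fit of 13696 genes. The changed genes were drawn only from genes with higher mean counts. All simulated libraries shared a single mean profile, with no difference between cohorts. These numbers therefore check the fit and do not give the share it recovers in the real libraries.

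Alternatives were the quasi-likelihood test of edgeR, DESeq2 1.42.0, scaling to library size, other filters, quality weights, thinned counts, a replicate block, both placements of the unsettled libraries and the omission of each library. The members and all gene lists were chosen with earlier results of these data known. Named in the text are the 10 members, the pathway genes that passed in the joint fit, the largest other value of each list, Psmb5, Psmb6, Psmb7, Psmb10, Irf1, Irf8 and Rfx5, and the 8 genes most like the members. A further gene of that rule is not reported here.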

Additional observations from a re-analysis of the deposited data

Results flagged for a closer look

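Tap2 was picked out because its regions stood in opposite order in the 2 cohorts, with both midbrain libraries above both striatum libraries in the pilot cohort and below them in the second. The difference of the regional values between cohorts was -0.52 on the log2 scale (limma, adjusted p = 0.861), so it did not pass the test of the difference itself.

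The pair of libraries with an unsettled region held signal for the members and entered only the alternatives, not the regional comparisons of the assigned libraries. In the library titled Mdb 2, 10 of 10 members were above 3 counts, and in the library titled Str 2, 10 of 10. The library titled Mdb 2 had 752 CPM of H2-D1, 9.17 CPM of Nlrc5 and 1001 CPM of H2-K1, and the library titled Str 2 had 1112, 12.6 and 750 CPM of these genes. In the order Mdb 2 and Str 2, the microglial markers summed to 26269 and 14884 CPM. Assigned libraries of the second cohort had 16543 to 18529 CPM in the midbrain and 22920 to 28006 CPM in the striatum. Border macrophage markers summed to 628 and 2366 CPM, against 2639 to 3222 CPM in the midbrain and 651 to 722 CPM in the striatum. These marker sums stood nearer to the region in the name of the file, as did those of neutrophils, monocytes and dendritic cells. In the order Mdb 2 and Str 2, the neutrophil sums were 1163 and 3125 CPM and the monocyte sums 165 and 1016 CPM. The dendritic cell sums were 27.5 and 64.7 CPM. Immediate early genes summed to 29669 and 17377 CPM, against 22933 to 25046 CPM in the midbrain and 12208 to 12662 CPM in the striatum. By this sum the library titled Mdb 2 stood nearer to the region of its title, and that titled Str 2 lay between the regions. T and NK cell markers, at 42.8 and 72.5 CPM, were both nearer to the striatum. Which label is right was not tested. With 2 libraries in each group, no group was large enough to look for single libraries far from the rest.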

How the results depend on the processing

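Depth and the 2 libraries per group limit what can be seen. Of 178 joint log2 fold changes under alternatives, 163 kept direction and side of the threshold, 10 newly passed and 5 turned sign. In the pilot cohort the counts were 107, 8 and 5 of 120, and in the second 113, 11 and 15 of 139. The cause of each change was not tested.

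Against 0 members called, no filter gave 1 in the pilot cohort, 2 in the second and 1 in the joint fit. Those fits called 822 of 24002, 458 of 22350 and 277 of 25586 genes. Quality weights gave 1, 1 and 2 members, in fits that called 456 of 14972, 489 of 13486 and 412 of 14053 genes. In the same order the main fits called 395, 468 and 149 genes. At least 10 counts in every library gave 1 in the second cohort and 1 in the joint fit, where Nlrc5 could not be tested. These fits called 204 of 7043 and 57 of 7037 genes. DESeq2 gave 2 and thinned counts 1 in the joint fit, where 544 of 14053 and 197 of 9005 genes passed. The unsettled libraries in the other region gave 1 in the second cohort and 1 in the joint fit, where 692 of 13254 and 440 of 13814 genes passed. Against 2 pathway genes called, DESeq2 gave 5, quality weights 4, at least 10 counts in every library 1 and thinned counts 1. The unsettled libraries by title gave 0, in a fit where 0 of 13814 genes passed. Without a filter the median of all genes in the joint fit moved from 0.04 to -0.11, and the median of the members was then 0.26.

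Leaving out 1 library at a time gave 0 to 1 members in the joint fit, where 0 to 238 of all tested genes passed, and 0 to 4 pathway genes. For the cohort difference it gave 0 to 4 members, where 134 to 2021 of all tested genes passed. Within a single cohort 1 library is left in a group and was assumed to vary like the others, so log2 fold changes are given here. The pilot values ranged from 0.24 to 0.60 for H2-D1, -0.55 to -0.065 for H2-T23 and 0.23 to 2.53 for B2m. For Tap2 they ranged from 0.083 to 0.46 and for Psmb8 from 0.27 to 0.43. The values of the second cohort ranged from 0.32 to 0.84 for H2-K1 and 0.64 to 0.75 for H2-D1. For Tap1 they ranged from 0.64 to 1.11 and for Nlrc5 from 1.08 to 1.77.

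Under the replicate block 1 member was called in the pilot cohort (B2m), 1 in the second (H2-D1) and 1 in the joint fit (H2-D1), and 3 pathway genes. Of all genes, 401 of 14972, 988 of 13486 and 308 of 14053 were called in these fits. Libraries of the same number deviated with a correlation of -0.03 in the pilot cohort and 0.08 in the second over 14053 genes. With 2 libraries in each group this is 1 value per cohort, which cannot settle the pairing. The titles and file names number the second cohort differently. The number was not taken to pair the libraries in the main fits, although the regions share mice.

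The Psmb8 to Psmb5 log2 ratio difference was 0.40 (exact permutation p = 0.0167) with the unsettled libraries in the other region, 0.26 (p = 0.1) with them by title, and 0.36 to 0.49 without 1 library. That of Psmb10 to Psmb7 ranged from -1.06 to 0.25 without 1 library.

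The values that turned sign were these. In the second cohort H2-T23 was at 0.012 by edgeR, 0.016 by DESeq2, 0.067 with at least 10 counts, 0.013 when thinned and 0.13 with the unsettled libraries in the other region, where Psmb9 was at 0.022. With those libraries by title B2m was at -0.35 and Psmb8 at -0.18, against joint values of 0.37 and 0.042, and with library size scaling Psmb8 was at -0.019. In the joint fit on thinned counts Tap2 was at -0.021 and Psmb9 at -0.11. Without 1 library, the pilot values ranged from -0.26 to 0.36 for H2-K1, -0.15 to 0.24 for Tap1, -0.31 to 0.056 for Tapbp and -0.018 to 0.35 for Psmb9. Those of the second cohort ranged from -0.25 to 0.31 for H2-T23, -0.26 to 0.64 for B2m, -0.020 to 0.13 for Psmb8 and -0.30 to 0.18 for Psmb9, and the joint ones from -0.031 to 0.15 for Tap2 and -0.038 to 0.15 for Psmb9.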
